A study of Homo sapiens with 9 samples.

Results

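Interferon-stimulated genes are the genes that cells switch on after type I interferon binds its receptor. Here 43 of them, set down by name, are described in a human B-cell line labelled with 3 levels of the transcription factor MYC. A member was read from each probe set whose only platform gene symbol, or an older alias of it, was on the list. In all, 42 members were measured by 79 of the 54675 probe sets on the array, 23 of them by more than 1, and STAT2 is not analysed here. The gene listed as DDX58 now carries the symbol RIGI.

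As background, the type I interferon receptor is a pair of chains, IFNAR1 and IFNAR2, that activate Janus kinases, which phosphorylate STAT proteins. A complex of STAT proteins with IRF9 then binds a short element in promoters, the interferon-stimulated response element, and genes next to it are transcribed. Their products sense foreign RNA, degrade it, block translation or virus entry and budding, or feed back on the pathway. B cells respond to interferon and can also make it when their Toll-like receptors meet nucleic acids.

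Total RNA of P493-6 cells, an established line of human B lymphocytes, was hybridised to 9 single-colour Affymetrix arrays. The groups were high Myc expression (4 arrays), low Myc expression (3) and no Myc expression (2), each as the labels call it, and all came from this 1 line. As background, the line derives from B cells carrying Epstein-Barr virus, its MYC transgene is shut off by tetracycline, and its viral factor EBNA2 works only with estrogen. The labels give no agent, dose, time or separate culture for any group, so whatever else set the MYC level of a group cannot be told apart from MYC. Replicates may be technical, so a p-value here speaks only of how these arrays vary.

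MYC itself went against 1 label. Among the high Myc arrays its intensity ran from 11326 to 15404, and from 1443 to 2526 among those of low Myc, but it was 2803 on the array labelled no Myc replicate 1 and 416 on the array labelled no Myc replicate 2. MYC on the first of these was thus above every low Myc array. With both arrays in the fit, MYC was not called between low and no Myc. Results against the no Myc group are therefore given with both arrays. Calls that end or folds that move much without the array labelled no Myc replicate 1 are given too. Array medians were 75.3 to 80.3. GAPDH read more brightly at the 3' than at the 5' end of its transcript, by a log2 of 0.253 for no Myc replicate 1, 0.422 for no Myc replicate 2 and 0.009 to 0.243 elsewhere. For ACTB the same measure was 0.004 and -0.011 on these arrays, within the -0.074 to 0.188 of the others. What part this had in any result was not tested.

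The response element reads GAAA, a pair of free bases, then GAAA in its core, and 6 promoters of members that differed between high and no Myc are printed here to show it. Each is 300 bases of the RefSeq promoter table on GRCh38.p14, from 250 bases before to 50 after a start site, written 5′ to 3′ along the gene, with matches to these letters on either strand in capitals.
IFI27 (chr14:94110486-94110785, plus strand): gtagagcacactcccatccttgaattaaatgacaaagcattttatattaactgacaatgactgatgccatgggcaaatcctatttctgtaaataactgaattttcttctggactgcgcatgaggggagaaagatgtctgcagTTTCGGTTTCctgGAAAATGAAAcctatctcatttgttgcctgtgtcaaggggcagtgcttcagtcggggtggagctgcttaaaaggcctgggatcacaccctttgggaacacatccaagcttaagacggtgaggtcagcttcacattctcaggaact
IFI44 (chr1:78649539-78649838, plus strand): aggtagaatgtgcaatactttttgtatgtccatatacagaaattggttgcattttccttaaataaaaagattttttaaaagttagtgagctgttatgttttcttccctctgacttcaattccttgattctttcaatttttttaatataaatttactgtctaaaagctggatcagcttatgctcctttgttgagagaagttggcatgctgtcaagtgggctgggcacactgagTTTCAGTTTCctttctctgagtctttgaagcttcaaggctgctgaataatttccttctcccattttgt
IFI44L (chr1:78620198-78620497, plus strand): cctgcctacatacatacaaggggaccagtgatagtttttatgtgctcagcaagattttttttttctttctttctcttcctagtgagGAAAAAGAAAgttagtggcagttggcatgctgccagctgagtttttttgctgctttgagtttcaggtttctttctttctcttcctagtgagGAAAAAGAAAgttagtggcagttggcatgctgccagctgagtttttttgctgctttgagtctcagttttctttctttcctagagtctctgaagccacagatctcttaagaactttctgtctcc
DDX60 (chr4:168318703-168319002, minus strand): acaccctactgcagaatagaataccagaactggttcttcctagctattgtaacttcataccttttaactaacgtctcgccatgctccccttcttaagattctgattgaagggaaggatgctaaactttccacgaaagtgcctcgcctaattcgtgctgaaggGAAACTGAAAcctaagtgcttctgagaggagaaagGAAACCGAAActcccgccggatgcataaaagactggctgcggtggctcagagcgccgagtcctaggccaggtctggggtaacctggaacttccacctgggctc
IFIT1 (chr10:89392373-89392672, plus strand): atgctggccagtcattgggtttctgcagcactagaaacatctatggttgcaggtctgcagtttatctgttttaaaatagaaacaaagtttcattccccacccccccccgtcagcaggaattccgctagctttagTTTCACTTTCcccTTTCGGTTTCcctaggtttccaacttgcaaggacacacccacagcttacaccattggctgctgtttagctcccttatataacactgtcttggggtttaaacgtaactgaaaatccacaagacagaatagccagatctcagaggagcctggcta
EPSTI1 (chr13:42992192-42992491, minus strand): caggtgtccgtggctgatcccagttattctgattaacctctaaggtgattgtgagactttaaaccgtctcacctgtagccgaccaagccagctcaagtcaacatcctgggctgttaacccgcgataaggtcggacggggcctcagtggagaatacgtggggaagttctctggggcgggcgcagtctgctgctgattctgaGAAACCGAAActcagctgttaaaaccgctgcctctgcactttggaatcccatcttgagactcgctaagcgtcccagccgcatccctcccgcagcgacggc
In IFI27 the matches lay 108 and 95 bases before the start site, the first on the opposite strand. DDX60 held them 88 and 53 bases before its start, IFIT1 116 and 103 bases before, both on the opposite strand, EPSTI1 50 before, and IFI44 18 before, also on the opposite strand. In IFI44L the letters GAAAAAGAAA stood 164 and 73 bases before the start, within a stretch that the promoter repeats.

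The table held promoters for 34 of the 42 measured members, and 24 of these genes had the letters at a start site. Over the 48 start sites of listed members, 29 (60.4%) had these letters on 1 strand or the other, against 1255 of all 35116 start sites in the table (3.57%). A second pattern, TTC and GAA around 3 free bases, the core of the element that gamma interferon uses, was in 14 member start sites (29.2%) and in 7.66% of all. Both patterns were present at 10 member start sites and overlapped each other at 6. Several genes have more than 1 start site with shared bases, so these are counts of start sites and not of separate promoters. Of the 32 members with a promoter that were called lower in high Myc, 22 had the letters, and so did HERC5 and PLSCR1, which were not called.

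Read across the list, the interferon-stimulated genes stood high on both arrays labelled no Myc and low on the 7 others. High Myc cells had 38 of 42 members lower than no Myc cells at an adjusted p under 0.05 (limma, Benjamini-Hochberg over 19775 genes) and none higher. Of all genes tested, 9.0% were lower in this comparison and 14.2% higher. The list was chosen with earlier results of these data known, so setting it beside all genes is description and not independent support. The median log2 difference over the members was -2.01, with a range of -4.75 to 0.11, beside -0.01 over all genes. Low Myc cells had 35 of 42 lower and none higher, where 8.55% of all genes were lower and 11.3% higher, with a median of -2.26 and a range of -5.69 to 0.94. These comparisons share the same 2 arrays labelled no Myc, so they are not separate evidence. In bulk RNA, fewer cells of a type and less RNA per cell cannot be told apart.

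**Figure D1:**
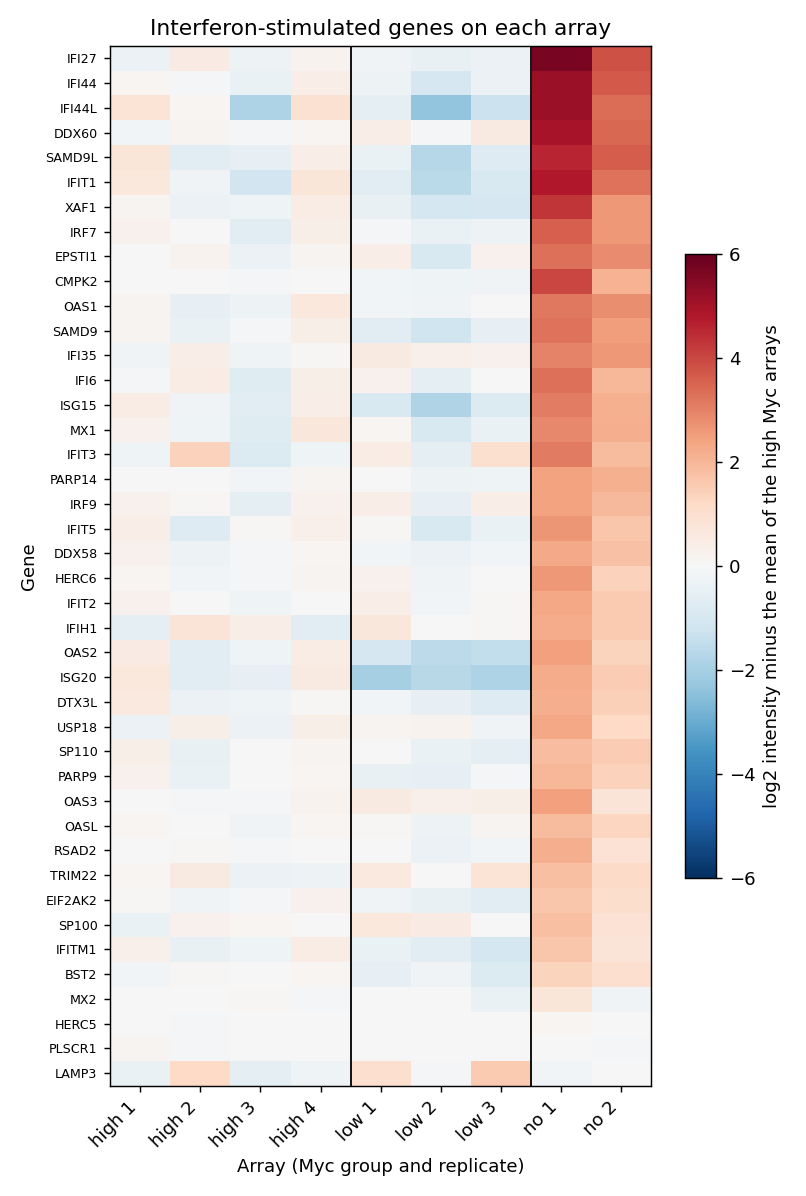
Each row is a measured interferon-stimulated gene and each column an array, coloured by its log2 intensity minus the mean of that gene on the 4 high Myc arrays (scale -6 to 6). Both columns labelled no Myc are red for 38 of the 42 genes, more deeply in replicate 1, and the bottom rows (MX2, HERC5, PLSCR1, LAMP3) are not.

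Both arrays labelled no Myc lay above all 7 others for 38 members (90.5%), against 12% of all genes, again as description of a list chosen with earlier results known. The exceptions were MX2, HERC5, LAMP3 and PLSCR1, the same 4 that were not called between high and no Myc. Array by array, the median log2 intensity over the members was 7.80, 7.49, 7.0 and 7.87 on high Myc replicates 1 to 4, 7.42, 7.10 and 7.36 on low Myc replicates 1 to 3, and 10.89 and 9.62 on those labelled no Myc replicates 1 and 2.

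The 2 arrays labelled no Myc differed from each other in these genes. On the array labelled no Myc replicate 1, 41 of 42 members were higher than on the array labelled no Myc replicate 2, where 49.5% of all genes were. The median gap was 0.82 (log2; all genes 0.00), from -0.13 for LAMP3 to 1.91 for IFI27, and it reached 2-fold for 15 members, against 0.430% of all genes. The library with more MYC transcript of the pair was also the one with the higher interferon-stimulated genes. With 1 array each there is no test of this gap.

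Without the array labelled no Myc replicate 1, 29 members remained lower in high than in no Myc (4.61% of all genes were) and the median was -1.62. For low against no Myc the count was 31 (4.22% of all genes) and the median -1.95. Leaving out the array labelled no Myc replicate 2 in its place gave 39 lower (6.61% of all genes) with a median of -2.43, and 36 lower (6.40% of all genes) with a median of -2.62. With either library as the only one of its group, it was assumed to vary like the other groups.

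**Figure D2:**
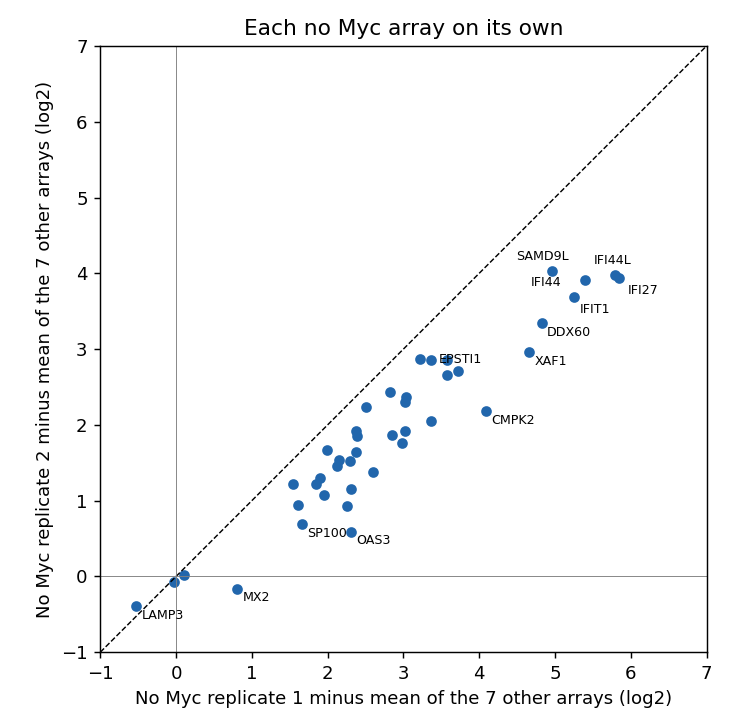
Each point is a measured member. The horizontal axis gives its log2 intensity on the array labelled no Myc replicate 1 minus the mean of the 7 high and low Myc arrays, the vertical axis the same for replicate 2, and the dashed line marks equal values. All members but LAMP3 lie below the line, and IFI27, IFI44L, IFI44, SAMD9L and IFIT1 lie farthest from 0.

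Among the signalling factors, IRF7 and IRF9 were both lower in high and in low Myc cells. IRF7, which drives transcription of the interferon genes themselves, read 267, 226, 142 and 284 on high Myc arrays 1 to 4, 210, 170 and 178 on low Myc arrays 1 to 3, and 2712 and 1343 on those labelled no Myc replicates 1 and 2, an order kept for all genes below. Its log2 difference was -3.10 ± 0.32 (SE) for high minus no Myc (limma adjusted p = 0.000295) and -3.37 ± 0.34 for low minus no Myc (limma adjusted p = 0.000528). IRF9, the DNA-binding subunit of the STAT complex, read 722, 622, 395 and 720, then 788, 428 and 776, then 3200 and 2323. Neither gene's no Myc arrays overlapped the others. The difference for IRF9 was -2.19 ± 0.32 for high minus no Myc (limma adjusted p = 0.00116) and -2.09 ± 0.33 for low minus no Myc (limma adjusted p = 0.00275).

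All 4 RNA sensors were lower in both groups than in no Myc. DDX60, a helicase linked to signalling by the cytoplasmic RNA sensors, had the widest difference of them. It read 17.4, 22, 18.4 and 21 in high Myc, 26, 18.5 and 28.6 in low Myc, and 605 and 217 on the arrays labelled no Myc. Those high and low values are near the bottom of the scale (mean log2 under 5), so the 18.5-fold difference is not exact, and it was 11.1-fold without the array labelled no Myc replicate 1. EIF2AK2, the kinase PKR that halts translation when it binds double-stranded RNA, had the narrowest in high Myc and IFIH1 in low Myc. EIF2AK2 read 869, 719, 801 and 994, then 719, 622 and 536, then 2659 and 1718. Its log2 difference was -1.35 ± 0.20 for high minus no Myc (limma adjusted p = 0.00131) and -1.78 ± 0.21 for low minus no Myc.

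DDX58, the sensor RIG-I, was 4.07-fold lower in high Myc and 4.73-fold lower in low Myc than in no Myc. IFIH1, the sensor MDA5, was 3.70-fold lower in high Myc and 3.16-fold lower in low Myc, and its high Myc arrays spread from 141 to 368. Its calls ended without the array labelled no Myc replicate 1, at a limma adjusted p of 0.11 for high minus no Myc and 0.214 for low minus no Myc. The low Myc call also ended without the array labelled no Myc replicate 2, low Myc replicate 2 or low Myc replicate 3, with limma adjusted p-values of 0.0554, 0.076 and 0.0598.

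The IFIT proteins bind foreign RNA and keep it from the ribosome, and all 4 genes were lower in both groups. IFIT1 read 183, 104, 53.6 and 198 in high Myc, 77.2, 39.3 and 63.3 in low Myc, and 3327 and 1123 on the arrays labelled no Myc. High Myc replicate 3 was well below the other high Myc arrays, within the range of low Myc, yet the lower no Myc array was above all 7. The difference was 16.2-fold in high Myc (log2 -4.02 ± 0.59, limma adjusted p = 0.00121) and 33.5-fold in low Myc (log2 -5.07 ± 0.62, limma adjusted p = 0.000964), or 9.43-fold in high and 19.5-fold in low Myc without the array labelled no Myc replicate 1. On the probe set used, IFIT2, which binds IFIT1 and IFIT3, read 118, 97.8, 81.2 and 100, then 129, 87.5 and 105, then 497 and 292, or 3.87-fold lower in high Myc and 3.61-fold lower in low Myc. A dimmer probe set of IFIT2 read 36.6, 34.5, 21.5 and 32.6, then 52, 29.1 and 37.3, then 1070 and 291, or 18.2-fold and 14.6-fold lower, so the size of the IFIT2 difference depended on the probe set.

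IFIT3 was the least even member of this family. It read 507, 1583, 345 and 517 in high Myc, 836, 423 and 1179 in low Myc, and 5289 and 2257 on the arrays labelled no Myc, so that high Myc replicate 2 stood above all low Myc arrays. The log2 difference was -2.49 ± 0.63 for high minus no Myc (limma adjusted p = 0.0184) and -2.21 ± 0.66 for low minus no Myc (limma adjusted p = 0.0456). With the array labelled no Myc replicate 1 left out, these differences were -1.88 and -1.59, with adjusted p-values of 0.196 and 0.334. The low Myc call was also lost without any 1 of 5 other arrays, at adjusted p-values from 0.0615 upwards: no Myc replicate 2, high Myc replicates 1 and 4, and low Myc replicates 1 and 2. IFIT5 was 4.50-fold lower in high and 6.06-fold lower in low Myc, and its high Myc call ended without the array labelled no Myc replicate 1 (log2 -1.68, limma adjusted p = 0.0596).

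**Figure D3:**
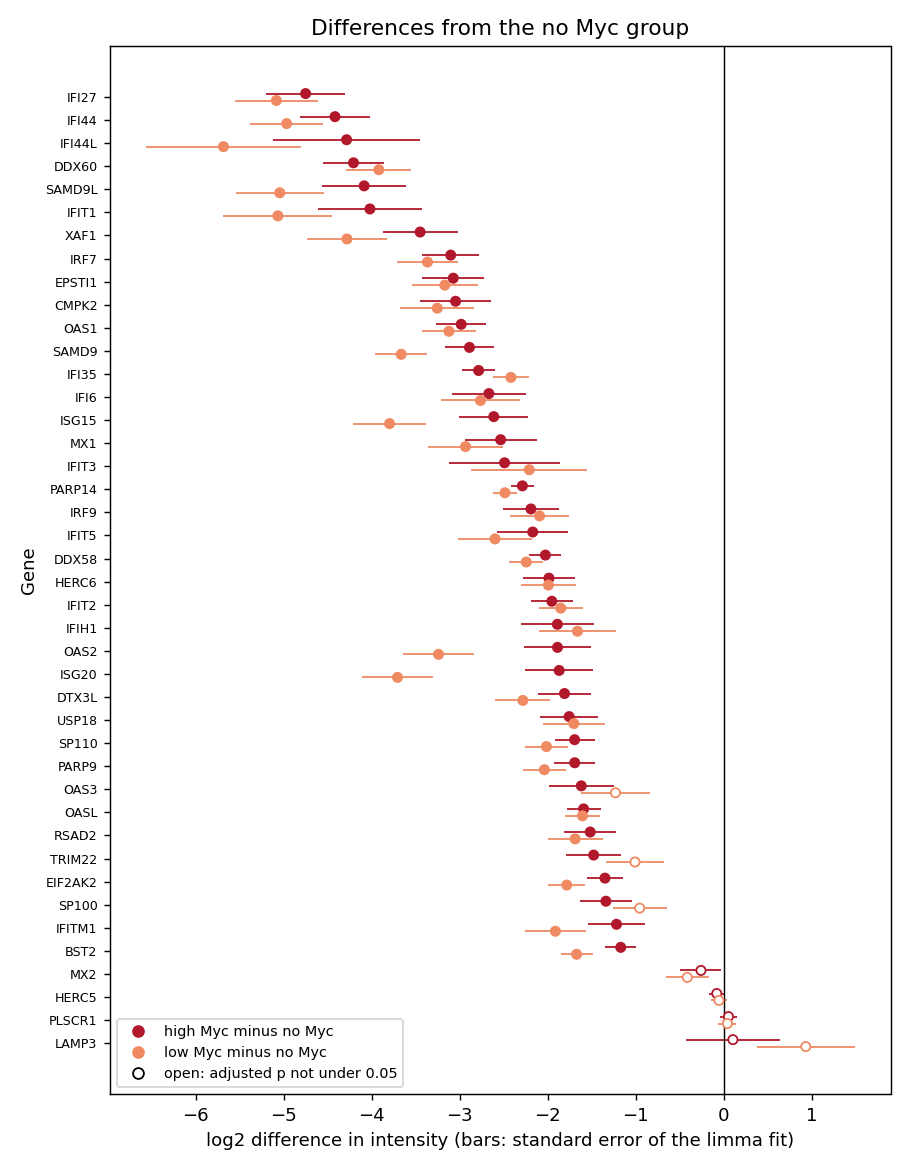
Log2 difference of each measured member for high minus no Myc (dark red) and low minus no Myc (orange), with bars for the standard error of the limma fit, sorted by the former. Filled points have an adjusted p under 0.05. All but the last 4 genes are filled for high Myc, and OAS3, TRIM22 and SP100 are open for low Myc alone.

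The OAS enzymes make short oligoadenylates that activate RNase L, which cuts viral and cellular RNA. OAS1 read 159, 99.9, 114 and 223 in high Myc, 125, 122 and 141 in low Myc, and 1268 and 991 on the arrays labelled no Myc. It was 7.90-fold lower in high Myc (log2 -2.98 ± 0.29, limma adjusted p = 0.000218) and 8.71-fold lower in low Myc. OASL, a relative that lacks the enzyme activity, differed least of the 4 in high Myc, while OAS3 did in low Myc. OASL read 133, 124, 106 and 133, then 131, 101 and 138, then 458 and 302. Its fold was 3.01 in high Myc and 3.04 in low Myc.

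OAS3 and OAS2 were less uniform. OAS3 read 82.2, 76.8, 75.3 and 94.7 in high Myc, 117, 101 and 104 in low Myc, and 456 and 139 on the arrays labelled no Myc, the widest ratio between those 2 arrays within the family (3.29-fold). It was called for high minus no Myc (log2 -1.62 ± 0.37, limma adjusted p = 0.0119) and not for low minus no Myc (-1.23 ± 0.39, limma adjusted p = 0.0591), although every low Myc array was below both no Myc arrays. Once the array labelled no Myc replicate 1 was left out, these differences were -0.76 (still called) and -0.37, and without replicate 2 the low Myc difference was called. It was also called with only genes at a mean log2 of at least 5 (limma adjusted p = 0.0476) and with a trended and robust prior (limma adjusted p = 0.046). OAS2 was 3.70-fold lower in high and 9.45-fold lower in low Myc, and its high Myc call ended without the array labelled no Myc replicate 1 (-1.33, limma adjusted p = 0.0871). The high Myc call for OAS2 also ended when the median of its probe sets was used (-1.17, limma adjusted p = 0.0866).

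The MX proteins are dynamin-like GTPases that trap viral particles, and the 2 genes did not go together. MX1 read 906, 636, 463 and 1224 in high Myc, 831, 400 and 566 in low Myc, and 5518 and 3472 on the arrays labelled no Myc. It was 5.79-fold lower in high Myc (log2 -2.53 ± 0.41, limma adjusted p = 0.00197) and 7.64-fold lower in low Myc (limma adjusted p = 0.00192). MX2 read 667, 652, 691 and 631, then 643, 646 and 500, then 1104 and 563. Only the array labelled no Myc replicate 1 stood apart for MX2, and replicate 2 lay within the other groups. The differences were -0.26 ± 0.23 and -0.41 ± 0.25 (limma adjusted p = 0.571 and 0.353). Without the array labelled no Myc replicate 1 they were 0.23 and 0.07, and without replicate 2 they were -0.74 and -0.90 and were called (limma adjusted p = 0.0183 and 0.0132).

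In the ISG15 system 3 of 4 genes were lower in both groups. ISG15, a ubiquitin-like protein that is attached to other proteins, read 11619 and 6162 on the arrays labelled no Myc. It was at 1867, 1204, 905 and 1802 in high Myc and 727, 397 and 782 in low Myc, so that the 3 groups did not overlap. The log2 difference was -2.61 ± 0.39 for high minus no Myc (limma adjusted p = 0.00137) and -3.80 ± 0.41 for low minus no Myc (limma adjusted p = 0.000677). HERC5, the main ligase that attaches ISG15, read 39.3 to 43.4 in high Myc, 42.6 to 43.4 in low Myc, and 45.9 and 43.4 on the arrays labelled no Myc. The same value of 43.4 stood on high Myc replicates 1, 3 and 4, low Myc replicate 3 and the array labelled no Myc replicate 2. No detection calls were used, so whether HERC5 was expressed cannot be told.

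USP18, which removes ISG15 and restrains the receptor, was 3.38-fold lower in high and 3.25-fold lower in low Myc. Its low Myc call ended without the array labelled no Myc replicate 1 (limma adjusted p = 0.0805). HERC6, a relative of HERC5, was 3.96-fold and 3.98-fold lower, with 33.8 to 43.7 in high Myc, 32.8 to 45.5 in low Myc, and 233 and 99.4 on the arrays labelled no Myc. With the array labelled no Myc replicate 1 left out, HERC6 was 2.59-fold lower in high Myc and 2.6-fold lower in low Myc.

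PARP14, PARP9 and DTX3L, enzymes of ADP-ribosylation and ubiquitin transfer of which the latter pair form a complex, were all lower. PARP14 varied little within the groups, with 348, 362, 321 and 393 in high Myc, 348, 285 and 299 in low Myc, and 1899 and 1583 on the arrays labelled no Myc. Its log2 difference was -2.29 ± 0.13 for high minus no Myc (limma adjusted p = 5.93e-05) and -2.48 ± 0.13 for low minus no Myc (limma adjusted p = 0.000127), the smallest adjusted p among the members in both. PARP9 read 255, 159, 214 and 227, then 154, 147 and 201, then 842 and 550, or 3.23-fold lower in high and 4.10-fold lower in low Myc. DTX3L was 3.5-fold and 4.86-fold lower.

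Of the enzymes that act on nucleotides or RNA, all 3 were lower in both groups. CMPK2, a mitochondrial nucleotide kinase, read 19.9, 19.5, 18.2 and 20 in high Myc and 17.5, 16.1 and 16.8 in low Myc, all near the bottom of the scale, against 310 and 82.9 on the arrays labelled no Myc. Its fold of 8.26 in high Myc is therefore not exact, and was 4.27 without the array labelled no Myc replicate 1. RSAD2, or viperin, which turns a nucleotide into a chain terminator, read 64.4, 65.9, 57.3 and 62.4, then 62.9, 48.8 and 55.5, then 282 and 113. Its log2 difference was -1.52 ± 0.30 for high minus no Myc (limma adjusted p = 0.00515) and -1.69 ± 0.31 for low minus no Myc, or -0.86 and -1.03, both still called, without the array labelled no Myc replicate 1.

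ISG20, an exonuclease that degrades RNA, was stepped across the 3 groups. It read 702, 286, 325 and 670 in high Myc, 114, 143 and 128 in low Myc, and 2142 and 1302 on the arrays labelled no Myc, with no overlap. The log2 difference was -1.87 ± 0.39 for high minus no Myc (limma adjusted p = 0.00698) and -3.71 ± 0.41 for low minus no Myc (limma adjusted p = 0.0007). Its high Myc call ended without the array labelled no Myc replicate 1 (-1.51, limma adjusted p = 0.0918).

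Membrane proteins were mixed, with 2 of 4 genes lower in both groups. IFITM1, which blocks the fusion of viruses with cell membranes, read 2806, 1662, 1898 and 3159 in high Myc, 1742, 1473 and 1118 in low Myc, and 7240 and 3947 on the arrays labelled no Myc. Its difference was -1.22 ± 0.33 for high minus no Myc (limma adjusted p = 0.0243) and -1.91 ± 0.34 for low minus no Myc. Once the array labelled no Myc replicate 1 was left out, both calls ended (-0.78 and -1.47, limma adjusted p = 0.262 and 0.055), and the high Myc call also ended without high Myc replicate 3 (limma adjusted p = 0.0616). IFITM1 has close copies in IFITM2 and IFITM3, and how far their probes share signal was not tested.

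BST2, or tetherin, which holds budding virions at the cell surface, was 2.25-fold lower in high and 3.18-fold lower in low Myc. PLSCR1, a phospholipid scramblase, read 24.5 to 29.5 in high Myc, 25.9 to 26.7 in low Myc, and 25.9 and 24.9 on the arrays labelled no Myc, all near the bottom of the scale. LAMP3, a lysosomal membrane protein, read 30, 88.1, 26.9 and 32.5, then 77.3, 37.2 and 116, then 34.6 and 38. Neither of these last 2 genes was called in any comparison, with LAMP3 at 0.11 ± 0.53 for high minus no Myc and 0.94 ± 0.56 for low minus no Myc (limma adjusted p = 0.942 and 0.357). Without high Myc replicate 2 the high Myc difference of LAMP3 was -0.29.

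The small hydrophobic proteins IFI27 and IFI6 are found at mitochondria, and IFI27 had the largest high Myc difference on the list. IFI27 read 41.1, 72.1, 41.6 and 59.7 in high Myc, 45.2, 38.1 and 41.2 in low Myc, and 2717 and 724 on the arrays labelled no Myc. The lower of those 2 arrays was still far above all 7 others. The difference was 26.9-fold in high Myc (log2 -4.75 ± 0.45, limma adjusted p = 0.000207) and 33.9-fold in low Myc (log2 -5.08 ± 0.47, limma adjusted p = 0.000429). Without the array labelled no Myc replicate 1 the differences were 13.9-fold in high and 17.5-fold in low Myc. The mean log2 of IFI27 was 5.70 in high and 5.37 in low Myc, little above the bottom of the scale, so these folds may not be exact. IFI6 read 182, 260, 115 and 241, then 225, 132 and 190, then 1906 and 768, or 6.35-fold lower in high and 6.79-fold lower in low Myc, and 4.03-fold and 4.31-fold lower without the array labelled no Myc replicate 1.

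Among the nuclear proteins, all 3 genes were lower in high Myc and 1 in low Myc. SP110, a nuclear body component, read 460, 263, 358 and 401 in high Myc, 358, 272 and 252 in low Myc, and 1309 and 1053 on the arrays labelled no Myc. It was 3.23-fold lower in high and 4.04-fold lower in low Myc (limma adjusted p = 0.000834 and 0.000916). SP100, its relative in nuclear bodies, read 459, 728, 648 and 609, then 941, 852 and 606, then 2132 and 1087. For SP100 the low Myc arrays reached close to the lower no Myc array.

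SP100 was called for high minus no Myc (-1.34 ± 0.29, limma adjusted p = 0.00907) and not for low minus no Myc (-0.95 ± 0.31, limma adjusted p = 0.061). TRIM22, a ubiquitin ligase that restrains viruses, read 1553, 2078, 1151 and 1178, then 2156, 1453 and 2567, then 5092 and 3183, and was likewise called for high (-1.48 ± 0.31, limma adjusted p = 0.00746) and not for low Myc (-1.01 ± 0.33, limma adjusted p = 0.0625). With the array labelled no Myc replicate 1 left out, the high Myc calls of both ended (limma adjusted p = 0.107 for SP100 and 0.0995 for TRIM22). The low Myc difference was called for SP100 without the array labelled no Myc replicate 2 (limma adjusted p = 0.0198), and for TRIM22 without low Myc replicate 3 (limma adjusted p = 0.0419) or high Myc replicate 2 (limma adjusted p = 0.0378). Quantile normalization repeated on the values also called both low Myc differences (limma adjusted p = 0.0141 for SP100 and 0.0436 for TRIM22). With every probe set fitted, SP100 was called lower in low Myc at some further probe sets (-0.96 and -0.90, limma adjusted p = 0.0405 and 0.00805) and not at others. That one group passed the test and the other did not is no test of their difference, which for neither gene passed between high and low Myc.

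SAMD9 and SAMD9L, neighbouring genes whose products restrain poxviruses and cell growth, were both lower. SAMD9L read 196, 75.3, 84.9 and 153 in high Myc, 88.7, 36.5 and 68.3 in low Myc, and 2754 and 1447 on the arrays labelled no Myc, a difference of 17.0-fold in high and 33.0-fold in low Myc. SAMD9 read 128, 85.9, 103 and 145, then 73.2, 49 and 80.4, then 1075 and 653, or 7.41-fold and 12.7-fold lower. In both genes the lower array labelled no Myc was several times above the highest of the 7 others.

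IFI44 and IFI44L, paralogs that sit next to each other on chromosome 1, were among the most strongly different. IFI44 read 65.9, 56.1, 46 and 81.7 in high Myc, 48.7, 30.8 and 48.4 in low Myc, and 2187 and 779 on the arrays labelled no Myc. It was 21.4-fold lower in high Myc (log2 -4.42 ± 0.39, limma adjusted p = 0.000162) and 31.3-fold lower in low Myc (limma adjusted p = 0.00032), or 12.7-fold and 18.7-fold lower without the array labelled no Myc replicate 1. IFI44L read 317, 195, 50.5 and 340, then 124, 34.9 and 73.9, then 6623 and 1872. Its high Myc arrays alone spanned from 50.5 to 340, with replicate 3 lowest. Its difference was 19.5-fold in high Myc (log2 -4.29 ± 0.84, limma adjusted p = 0.00526) and 51.5-fold in low Myc (log2 -5.69 ± 0.88, limma adjusted p = 0.00241). Once the array labelled no Myc replicate 1 was left out, the high Myc call ended at 10.4-fold (limma adjusted p = 0.075), and the low Myc difference was 27.4-fold and still called (limma adjusted p = 0.0337).

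Of the other induced genes, XAF1, an antagonist of an inhibitor of apoptosis, read 140, 99.8, 104 and 175 in high Myc, 92.1, 61 and 63.6 in low Myc, and 2488 and 765 on the arrays labelled no Myc. It was 10.9-fold lower in high and 19.4-fold lower in low Myc, and 6.06-fold and 10.8-fold lower without the array labelled no Myc replicate 1. IFI35, a leucine-zipper protein, read 116, 172, 112 and 138, then 191, 165 and 159, then 1048 and 795, or 6.89-fold and 5.34-fold lower. EPSTI1 was 8.41-fold and 9.0-fold lower. All 3 genes kept both arrays labelled no Myc above the rest.

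High and low Myc cells were compared to ask whether these genes also differ where MYC transcript did. MYC differed by a log2 of 2.70 (limma adjusted p = 0.0321), with every high Myc array above every low Myc array. That call was lost without any 1 of high Myc replicates 1, 3 and 4 or low Myc replicates 1 and 3 (limma adjusted p = 0.0827 to 0.0988). The fit pools the spread of all 3 groups, and MYC read 2803 and 416 on the arrays labelled no Myc. Of the members only ISG20 passed the test, higher in high Myc, and none was lower, where 2.33% of all genes were higher and 1.27% lower. ISG20 was 1.84 ± 0.34 higher (limma adjusted p = 0.0264). The call was lost without high Myc replicate 1 (1.63, limma adjusted p = 0.0628), high Myc replicate 4 (1.65, limma adjusted p = 0.0734), low Myc replicate 1 (1.76, limma adjusted p = 0.0971) or low Myc replicate 3 (1.84, limma adjusted p = 0.0641), and under an adjusted p of 0.01.

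Across the list 30 members were higher in the mean of high Myc than of low Myc and 12 lower, with a median of 0.20 and a range of -0.83 to 1.84, while 50.6% of all genes were higher in high Myc. An unadjusted p under 0.05 was reached by 8 members, all higher in high Myc. They were ISG20, OAS2 (1.35 ± 0.34), ISG15 (1.18 ± 0.35), SAMD9L (0.96 ± 0.42), SAMD9 (0.78 ± 0.25), IFITM1 (0.69 ± 0.29), BST2 (0.50 ± 0.15) and EIF2AK2 (0.43 ± 0.18). For all but ISG20 the limma adjusted p was from 0.0679 (OAS2) to 0.299 (SAMD9L). Other probe sets gave smaller differences for ISG20 (1.69, also called), OAS2 (0.70 and 0.52), SAMD9L (0.47 and 0.30), SAMD9 (0.38) and EIF2AK2 (0.008 and 0.16). ISG15, IFITM1 and BST2 had 1 probe set each. OAS2 was called without high Myc replicate 2 (1.57, limma adjusted p = 0.0247) and BST2 without low Myc replicate 2 (0.65, limma adjusted p = 0.0447).

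Every high Myc array lay above every low Myc array for 8 members (19%), against 8.06% of all genes. These were EIF2AK2, OAS2, ISG15, CMPK2, ISG20, BST2, SAMD9 and XAF1. The reverse held for OAS3 alone (4.66% of all genes). CMPK2 read near the bottom of the scale in both groups, so its order carries little. At another probe set of each of EIF2AK2, OAS2, SAMD9, XAF1 and OAS3 the high and low Myc arrays overlapped.

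**Figure D4:**
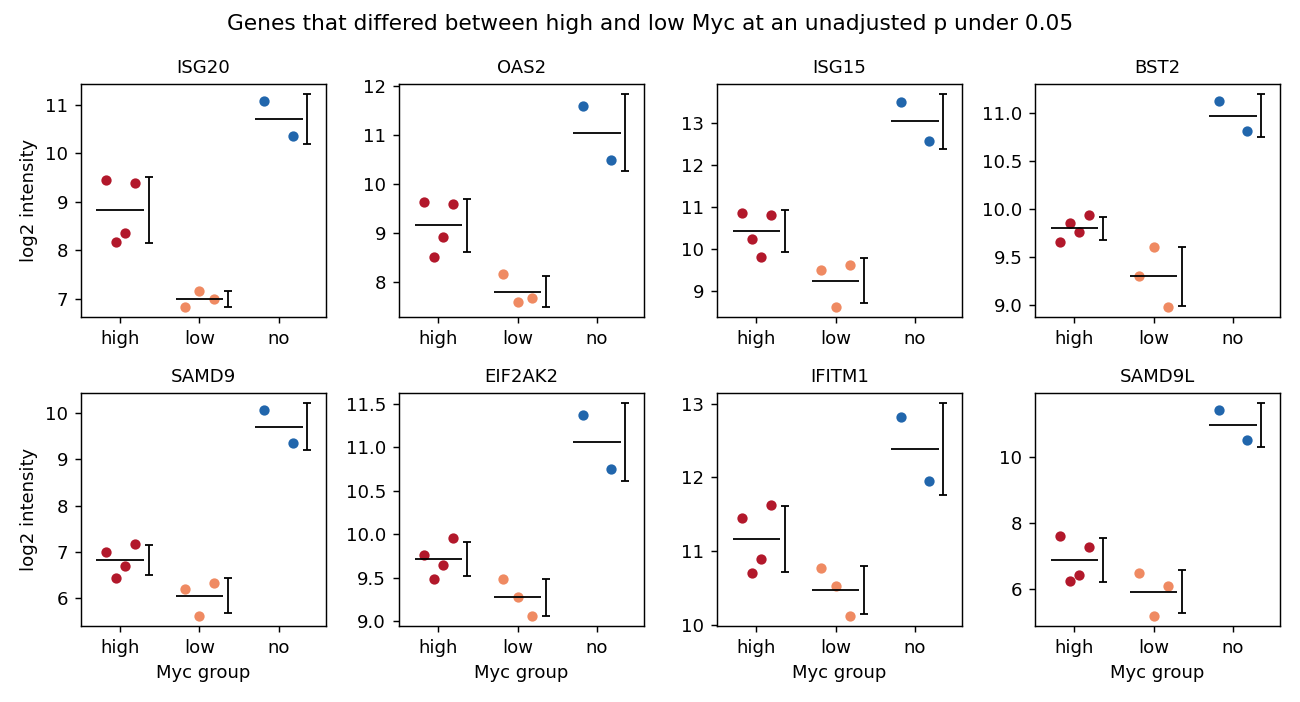
Log2 intensity on each array (points, in replicate order within a group) for the 8 members with an unadjusted p under 0.05 between high and low Myc, with a line at each group's mean and bars of 1 SD (n = 4, 3 and 2). Each vertical axis has its own range. The low Myc mean is lowest in every panel and the arrays labelled no Myc are highest. High Myc replicates 1 and 4 are the upper pair of their group in every panel but that of BST2.

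Within the groups the members also moved by array. On high Myc replicate 3, 19 of 42 members were at their lowest for the group, on replicate 2 16 were, and on replicate 4 16 were at their highest. The median deviation from the group mean was 0.12, -0.05, -0.26 and 0.18 (log2) on high Myc replicates 1 to 4. In low Myc, 27 members were highest on replicate 1 and 30 lowest on replicate 2, with median deviations of 0.18, -0.20 and 0.00. Over all genes the median deviations on these 7 arrays were between -0.01 and 0.03. The shares of all genes at their highest or lowest on each array were not counted, so the member counts have nothing beside them.

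Other probe sets of the members were read as well. Of the 79, 64 were lower in high than in no Myc (7.99% of all named probe sets were), 61 were lower in low than in no Myc (7.78%), and none was higher in either. The 15 that were not called in high Myc included all those of HERC5, LAMP3, MX2 and PLSCR1, and further probe sets of EIF2AK2, HERC6, IFIH1, OAS2, OAS3, PARP14 and SP100. Between high and low Myc 2 probe sets were higher, both of ISG20. Of 22 members with more than 1 probe set at a mean log2 of at least 5, 6 had high Myc differences over 1 (log2) apart. They were IFIT2 (-4.19 to -1.95), PARP14 (-2.29 to -0.46), HERC6 (-1.99 to -0.25), XAF1 (-3.45 to -1.78), OAS3 (-1.62 to -0.10) and SP100 (-1.41 to -0.16).

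For the counts of called genes in the lists from here on, 9.0% of all genes were lower and 14.2% higher in high than in no Myc. In low against no Myc these shares were 8.55% and 11.3%, and in high against low Myc 1.27% and 2.33%. The ligands lie upstream of the interferon-stimulated genes. The 18 interferon genes measured had intensities of 13.8 to 292 over the 9 arrays, and 8 of them had a mean log2 under 5 in all 3 groups. No detection calls were used, so this says nothing on whether any was present. IFNA2, an alpha interferon, was lower in high Myc (-0.70 ± 0.12, limma adjusted p = 0.00298) and in low Myc (-0.61 ± 0.13, limma adjusted p = 0.01) than in no Myc, at 16.5 to 20.6 against 33.5 and 26.2, near the bottom of the scale. Its low Myc call ended without the array labelled no Myc replicate 1 (limma adjusted p = 0.101). The median over the 18 was -0.09 for high and -0.01 for low minus no Myc. IFNB1, the beta interferon, read 54.4 to 66.7 in high Myc, 61.1 to 88.3 in low Myc, and 57.8 and 63.5 on the arrays labelled no Myc.

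Of 6 receptor chains, IL10RB, shared by the lambda interferon and IL-10 receptors, was lower in high (-1.54 ± 0.18, limma adjusted p = 0.000446) and low Myc (-1.10 ± 0.19, limma adjusted p = 0.00376). IFNAR1 read 142 to 193 in high Myc, 127 to 205 in low Myc, and 211 and 162 on the arrays labelled no Myc. IFNAR2 read 196 to 243, 224 to 308, and 217 and 255. Neither type I receptor chain passed the test in any comparison. Without high Myc replicate 2 a second receptor gene was lower in high than in no Myc, 1 was higher in low than in no Myc, and 1 was lower in high than in low Myc.

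Of 10 further Janus kinases, STAT proteins and interferon regulatory factors, 7 were lower and none higher in high than in no Myc (median -0.83), and 2 were lower in low than in no Myc (median -0.12). The kinase JAK2 (-1.71 ± 0.24), STAT3 (-1.20 ± 0.22), IRF1 (-1.09 ± 0.13), a factor that binds response elements, and the kinase TYK2 (-0.90 ± 0.22) had the largest high Myc differences. In low Myc JAK2 (-1.19 ± 0.25) and IRF1 (-1.13 ± 0.14) were called, and TYK2 (-0.12 ± 0.23) and STAT3 (-0.51 ± 0.23) were not. The count for high Myc was 4 without the array labelled no Myc replicate 2, and that for low Myc 1 without replicate 1, where JAK2 was at a limma adjusted p of 0.0956. TYK2 was lost in high Myc without either of them (0.0796 without replicate 1 and 0.112 without replicate 2). Between high and low Myc IRF2 and IRF5 were lower in high Myc, a count that leaving out single arrays moved between 0 and 6, the latter without high Myc replicate 2.

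Among 17 further sensors, adaptors and kinases of nucleic acid sensing, 7 were lower in high (median -0.54) and 10 in low (median -0.73) than in no Myc, and none was higher. ZBP1, a sensor of Z-form nucleic acid, read 68.8 to 99.3 in high Myc, 54.1 to 84.2 in low Myc, and 670 and 422 on the arrays labelled no Myc (-2.68 ± 0.23 and -3.02 ± 0.25). AIM2, a sensor of cytoplasmic DNA, TLR7, which senses RNA in endosomes, and the adaptor MYD88 had high Myc differences of -1.67 ± 0.46, -1.32 ± 0.27 and -1.06 ± 0.20. Without the array labelled no Myc replicate 1 the high Myc count was 3, with AIM2 (limma adjusted p = 0.202) and TLR7 (0.0692) lost, and AIM2 was lost in low Myc too (0.0831). The array labelled no Myc replicate 2 also decided AIM2 in high Myc (0.0901 when left out). Between high and low Myc 3 were higher in high Myc (IFI16, UNC93B1 and TRIM25), and none of the list was without any 1 of high Myc replicates 1, 3 and 4 or low Myc replicates 1 and 3.

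The inhibitors of the pathway were divided. Of 13, 5 were lower and 1 higher in high Myc (median -0.12), and 2 were lower and 1 higher in low Myc (median -0.10). SOCS1, which blocks Janus kinases, read 163, 976, 507 and 250 in high Myc, 1077, 1030 and 1117 in low Myc, and 1280 and 1664 on the arrays labelled no Myc (-1.95 ± 0.58 for high, limma adjusted p = 0.04). That call was lost in 8 of 9 fits with an array removed, with adjusted p-values of 0.0511 to 0.204. The phosphatase PTPN6 was lower in high (-1.86 ± 0.29) and in low Myc (-1.26 ± 0.31), IRF2BP2 was lower in high Myc (-0.97 ± 0.22), and the phosphatase PTPN11 was higher in high Myc (0.90 ± 0.21). Leaving out 1 array brought the lower count for high Myc to 1 without the array labelled no Myc replicate 1 (IRF2BP2 at a limma adjusted p of 0.148), 2 without replicate 2, and 3 without high Myc replicate 1 or 3. The higher count for high Myc was 0 without the array labelled no Myc replicate 2 and 2 without low Myc replicate 2. For low Myc the lower count was 0 without the array labelled no Myc replicate 1 or low Myc replicate 1, and 1 without no Myc replicate 2, and PTPN11 was not called in 8 of 9 such fits.

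Of 3 listed enzymes beyond the members that attach ISG15 to proteins, 2 were lower in both groups than in no Myc. TRIM25 among them was also counted with the sensors above. UBE2L6, the conjugating enzyme, was lower in high (-1.0 ± 0.22, limma adjusted p = 0.0104) and low Myc (-1.73 ± 0.24), and so was the ligase TRIM25 (-0.86 ± 0.14 and -1.42 ± 0.15). The median over the 3 was -0.86 in high and -1.42 in low Myc. With the array labelled no Myc replicate 1 left out, the high Myc call of UBE2L6 ended (limma adjusted p = 0.126).

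A list of 15 genes is better known for induction by gamma interferon. Of these, 5 were lower in high and 5 in low than in no Myc, with medians of -0.20 and -0.04, and WARS1 was higher in low Myc (0.92 ± 0.24), a call lost without low Myc replicate 1 or 2 or either array labelled no Myc. GBP3, a guanylate-binding protein, read 25.9 to 39 in high Myc, 32.4 to 53.8 in low Myc, and 290 and 251 on the arrays labelled no Myc (-3.06 ± 0.22 and -2.65 ± 0.23). NLRC5 and CIITA, which drive the genes of antigen presentation classes I and II, and APOL6 had high Myc differences of -1.69 ± 0.22, -1.55 ± 0.28 and -0.60 ± 0.12. With the median of their probe sets CIITA (-0.31 in high and -0.39 in low Myc, limma adjusted p = 0.215 and 0.139) and APOL6 (-0.38 and -0.49, limma adjusted p = 0.153 and 0.0802) were not called. With that setting 3 genes of the list were lower in high and 3 in low than in no Myc. GBP4 was lower in high than in low Myc (-1.45 ± 0.30). None of the list was without any 1 array other than high Myc replicate 2, and 3 were without that one.

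A further list of 28 genes is known to answer type I interferon. It had 20 lower and 1 higher in high Myc (median -1.11) and 19 lower and none higher in low Myc (median -1.17). SLFN5 (-3.12 ± 0.35), a nuclear member of the Schlafen family, LGALS3BP (-2.91 ± 0.43), a secreted glycoprotein, TNFSF10 (-2.84 ± 0.33), the death ligand TRAIL, and TRANK1 (-2.56 ± 0.35) had the largest high Myc differences. PNPT1, a mitochondrial RNA exonuclease, was higher in high Myc (1.01 ± 0.23), and not without the array labelled no Myc replicate 2. Between high and low Myc TRIM14 (1.67 ± 0.20) and PARP12 (1.33 ± 0.29) were higher in high Myc, a count of 1 without any 1 of high Myc replicates 1, 3 and 4, low Myc replicates 2 and 3, or either array labelled no Myc.

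The labelled cell type was checked against its markers. The 9 B-cell markers had a summed intensity of 28324 to 34782 in high Myc, 33600 to 36957 in low Myc, and 62795 and 52962 on the arrays labelled no Myc, with 8 of 9 lower in high than in no Myc and 5 of 9 in low, MS4A1, CD79A, CD79B and PAX5 in both. Once the array labelled no Myc replicate 1 was left out, both counts were 2. By their median the B-cell markers thus moved in the same direction as the interferon-stimulated genes, by -1.02 in high and -0.45 in low Myc. In low Myc 2 of the 9, EBF1 and BLK, were higher than in no Myc, and neither was called. What part the shift of these markers had in the result was not tested.

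Markers of other cell types were checked likewise. Of 9 myeloid markers LYZ (-3.85 ± 0.43) and ITGAM (-3.05 ± 0.18) were lower in high than in no Myc. The list summed to 449 to 524 in high Myc, 411 to 466 in low Myc, and 2552 and 1705 on the arrays labelled no Myc. Most of the sum on those 2 arrays was LYZ (775 and 333) and ITGAM (1480 and 1069). The median log2 intensity over the 9 was 5.27 to 5.47 in high Myc, 5.18 to 5.43 in low Myc, and 5.62 and 5.47 on those 2 arrays. Of 7 markers of plasmacytoid dendritic cells, the main producers of interferon in blood, TCF4 (-1.35 ± 0.23) and PLD4 (-1.68 ± 0.40) were lower, and both genes are also expressed in B cells. On the arrays labelled no Myc, TCF4 (2670 and 2053) and PLD4 (1658 and 1375) made up most of the list's summed intensity. That list summed to 1576 to 2224, 1219 to 1544, and 4728 and 3990, and 1 of the 7 was lower without either array labelled no Myc. Of 12 T and NK cell markers CD2 was lower (-0.90 ± 0.27) and IL7R higher (1.76 ± 0.32) in high than in no Myc, the former lost in 6 of 9 fits with an array removed, with the list at 1426 to 2271, 1157 to 1279, and 1371 and 1203. Of 8 plasma cell markers XBP1 (0.74 ± 0.22) and FKBP11 (2.32 ± 0.41) were higher, 1 of them without most single arrays. The lists of fibroblast and epithelial genes (10) and of erythroid and platelet genes (6) had none called in high against no Myc, and CDH1 was higher in low than in no Myc (3.22 ± 0.75), though not without either array labelled no Myc. The part of other cells in the result was not tested.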

How the data were processed

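Per the submitters' processing notes RMA was used, and its version is not given in the sources used here. The authors deposited them as intensity on a linear scale, and log2 of that intensity was used. RMA makes the arrays' distributions alike, so a difference is one against the rest of the array. The number of arrays limits the precision, and no detection calls were used.

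The platform annotation named a probe set where it gave 1 symbol (41097 of 54675, with 1801 having several and 11777 none), and symbols were updated by Entrez identifier for 41043. A gene was read at its probe set with the highest mean log2 value, which left 19775 genes. Group means were fitted to all 9 arrays at once with limma 3.58.1 in R 4.3.3 (lmFit, contrasts, eBayes, 6 residual degrees of freedom, two-sided). P-values were adjusted by Benjamini-Hochberg over all genes, with a call at an adjusted p under 0.05. A mean log2 under 5 was treated as near the bottom of the scale, where a fold is not exact. Folds from means little above that cut, such as those of IFI27, IFI44 and HERC6, may not be exact either. The procedure was tested on simulated data with 200 changed genes. For high against no, low against no and high against low Myc it recovered 68.4%, 63.5% and 77% of 2-fold changes. For 4-fold changes these shares were 94.6%, 94.8% and 96.5%, and 4.62%, 5.94% and 5.04% of calls were false. Each simulated gene varied on its own and alike in all groups, so a shift shared by many genes on 1 array was not covered.

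The members, their role groups and the pathway and marker lists were chosen with earlier results of these data known. Every array is given for the member of each role group with the largest and the smallest high Myc difference and for members called in 1 comparison and not the other, with a few others added. From each pathway list up to 4 called genes with the largest high Myc difference were named, and others named there were chosen after their values were seen. Promoters were matched to members by symbol.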

Additional observations from a re-analysis of the deposited data

Results flagged for a closer look

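On high Myc replicate 2, HERC5 read 39.3. The gap to the next high Myc array took up a share of 1.0 of the group's range because the 3 others were equal. LAMP3 read 88.1 on the same array, above the 3 others by a share of 0.84 of the range. Of the 42 members, 2 passed Dixon's critical share for 4 arrays, where chance passes about 1 in 20. Neither gene was called in any comparison, and the cause was not tested.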

How the results depend on the processing

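The alternatives were quantile normalization repeated, arrays centred on their medians, a filter at a mean log2 of 5, the median over probe sets, every probe set fitted, a trended and robust prior, only the 2 groups compared, stricter thresholds, a replicate block, and leaving out each array. With 1 array left out, 29 to 39 members were lower in high than in no Myc (median -2.43 to -1.62), 31 to 36 were lower in low than in no Myc (median -2.62 to -1.95), and 0 to 2 were higher in high than in low Myc. At an adjusted p under 0.01 these counts were 35, 33 and 0, and the share of all genes at that threshold was not counted. No alternative turned the direction of a called member.

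Some uncalled differences changed sign. With the median of its probe sets PLSCR1 was at -0.039 (high minus no Myc) and -0.054 (low minus no Myc). Over the fits with 1 array left out, high minus no Myc ranged from -0.29 (without high Myc replicate 2) to 0.28 for LAMP3, from -0.74 (without the array labelled no Myc replicate 2) to 0.23 (without replicate 1) for MX2, from -0.10 to 0.032 for IFNB1 and from -0.24 to 0.0023 for IFNAR2. Low minus no Myc ranged from -0.90 to 0.074 for MX2 and from -0.38 to 0.005 for IFNAR1, between the same 2 fits, from -0.073 (without low Myc replicate 2) to 0.20 for IFNAR2, and from -0.50 (without the array labelled no Myc replicate 2) to 2.25 (without replicate 1) for MYC.

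The labels do not say whether equal replicate numbers pair the samples. The correlation of deviations was from -0.314 to 0.465 between same-numbered arrays and from -0.465 to 0.438 between the others. Deviations of the 2 arrays labelled no Myc mirror each other, so these values cannot settle whether the numbers pair. With the number as a replicate block, 34 members were lower in high and 33 in low than in no Myc (medians -2.05 and -2.20), and the share of all genes was not counted. The high Myc calls of IFIH1 (limma adjusted p = 0.0687), IFIT3 (0.127), SP100 (0.0737) and TRIM22 (0.0586) and the low Myc calls of IFIH1 (0.0784) and IFIT3 (0.168) were lost, and 1 was higher in high than in low Myc, OAS2 (1.21) in place of ISG20, then at 1.65 (limma adjusted p = 0.0905). Fitting every probe set ended the low Myc call of IFIT3 at the probe set used (limma adjusted p = 0.0584). Its other probe set was called lower in that fit (-2.27, limma adjusted p = 0.0368). The cause of each change was not tested.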
